A study of Mus musculus with 18 samples.

Results

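The interaction of dimethyl itaconate with LPS was measured in mouse bone marrow-derived macrophages. It compares the LPS response of cells that had received the compound with the LPS response of cells that had received vehicle. On the log2 scale it is the effect of the compound in LPS-treated cells minus its effect in cells without LPS, and the same number is the LPS response with the compound minus the LPS response without it. A negative interaction means an LPS fold change that was smaller with the compound than without it, and a positive one a fold change that was larger. All 12 libraries of the first experiment entered the comparison, of 18 libraries in the series, and 10285 of the 24052 genes in the table had enough counts to be tested. All 12 came from wild-type C57BL/6 marrow cells that had become macrophages in M-CSF, the macrophage colony-stimulating factor, at 20 ng/ml. The 4 groups of 3 libraries had received vehicle alone (titled Unst), 0.25 mM dimethyl itaconate for 12 h (DI), vehicle and then 100 ng/ml E. coli LPS for 4 h (LPS), or the compound for 12 h and then LPS for 4 h (DI_LPS). The labels do not name the vehicle, give the number of mice or say whether replicates were separate cultures, so the p-values cover only spread among these libraries, which may be technical. The other 6 libraries, from Irg1-/- and wild-type cells given LPS and interferon gamma, were not used here.

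LPS, a component of the outer membrane of Gram-negative bacteria, is sensed in macrophages by the receptor TLR4. The receptor signals through NF-kB and MAP kinases to early cytokine and chemokine genes, and through IRF3 and secreted interferon beta to interferon-stimulated genes. Itaconate is made in activated macrophages from an intermediate of the TCA cycle by the enzyme encoded by Acod1, also called Irg1. Dimethyl itaconate is a membrane-permeable ester of it that reacts with thiols, and thiol-reactive compounds release the transcription factor NRF2 from its inhibitor KEAP1 to switch on antioxidant, glutathione and iron-handling genes.

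Library totals ran from 955718 to 7629669 counts. The LPS group stood apart before any comparison was made. Of the genes tested, 7.42%, 12.4% and 28.5% had no count in LPS replicates 1, 2 and 3, against 0.369% to 2.77% in the other 9 libraries. Correlations of log2 CPM between replicates were 0.782 to 0.890 in that group and 0.933 to 0.970 in the others. LPS replicate 3 was the shallowest library, with 17.6% of its counts on Prdx1 against 1.34% to 14.1% elsewhere, so results are also given without it. Markers of macrophages were all present. Their summed level, in counts scaled to a common library size (CPM), was between 7663 and 10692 in the vehicle group and between 3547 and 5149 in the compound group. It was between 3125 and 4121 in the LPS group and between 3629 and 4807 in the group with both agents. All marker sums use library totals without the TMM scaling factors that the CPM values of single genes use. Those factors were 1.16 to 1.47 in libraries without LPS and 0.576 to 0.856 in libraries with LPS. The marker sums are therefore not on the scale of the other CPM values, and their differences between groups depend on that choice. Neutrophil markers summed to 195 to 598 CPM. Stromal markers summed to between 47.4 and 78.1 CPM in vehicle libraries, 27.6 and 30.9 in compound libraries, 27.0 and 51.8 in LPS libraries, and 22.2 and 36.4 in those with both agents, and their part in the results was not tested. Those of dendritic cells, T and NK cells, B cells, and erythroid and mast cells reached at most 9.87 CPM, with Flt3, Cd3e, Cd8a, Ncr1, Klrb1c, Nkg7, Pax5, Hba-a1 and Hbb-bs among those at 0 in all 12 libraries. In lysates, fewer cells expressing a gene and less RNA per cell cannot be told apart.

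The LPS response differed with the compound in 299 genes (edgeR quasi-likelihood test, Benjamini-Hochberg adjusted p under 0.05, the threshold for a call throughout). The interaction was lower in 156 genes (1.52% of those tested) and higher in 143 (1.39%). Without LPS replicate 3, 10628 genes were tested, 460 were lower (4.33%) and 346 higher (3.26%), and these included all 156 and all 143. The 2 directions had different shapes. Among the 156 lower genes, the median LPS response was 3.49 on the log2 scale without the compound and 1.07 with it. The median effect of the compound in them was 0.52 without LPS and -2.19 with LPS. Among the 143 higher genes, the median LPS response was -2.82 without the compound and 0.19 with it. The median effect of the compound in them was -0.21 without LPS and 2.96 with LPS. Over all genes tested, the median interaction was 0.17, so the values below are to be read against a centre slightly above 0.

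Most lower genes were LPS-induced genes whose induction was smaller with the compound. LPS raised 76 of the 156 with and without the compound, and 69 passed the test for induction only in vehicle cells. The other 11 were 8 that passed a fall with LPS only in compound cells, 2 that rose without and fell with the compound, and 1 that fell in both. Most higher genes were LPS-repressed genes: 86 of the 143 passed a fall with LPS only in vehicle cells and 16 fell in both. A further 21 rose with LPS only in compound cells, 10 rose in both, and 10 fell without the compound and rose with it. Among all genes tested, LPS without the compound called 34.3% and LPS with it 18.9%, while the compound called 2.84% without LPS and 15.9% with LPS. These 4 comparisons share libraries with the interaction and with each other and are given side by side to show its shape, not as separate evidence.

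**Figure D1:**
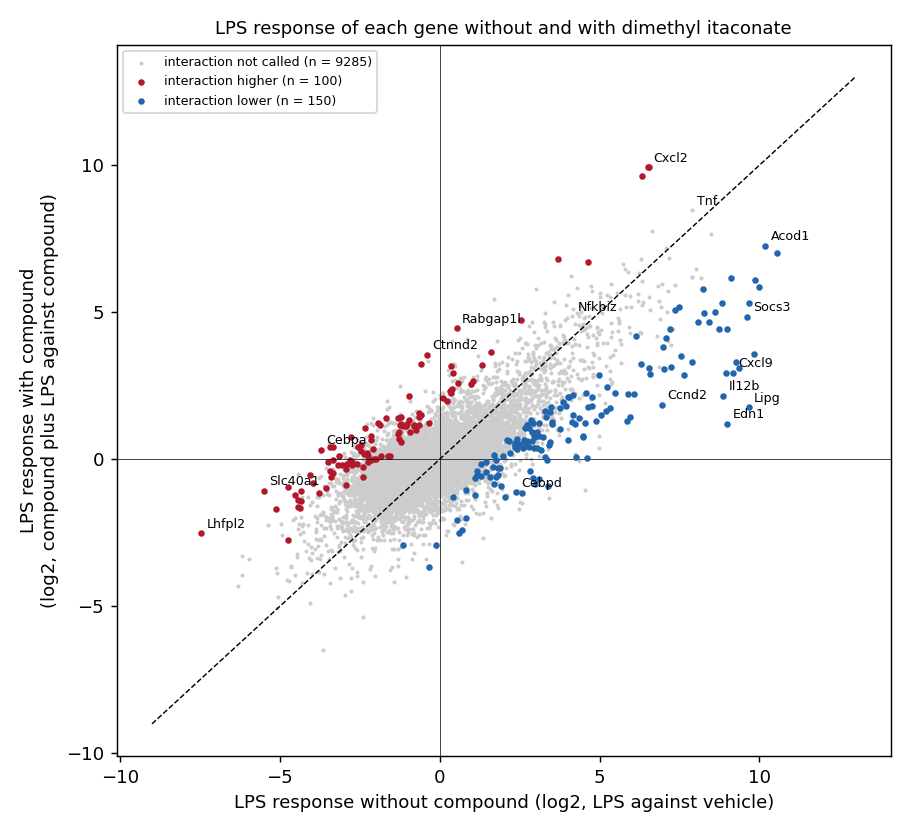
LPS response of each gene without the compound (x axis, log2 fold change of LPS against vehicle) and with it (y axis, log2 fold change of compound plus LPS against compound), for the genes with more than 3 counts in every group; points on the dashed line have no interaction. Blue points, with a lower interaction, lie mostly at the right and below the line, and red points, with a higher interaction, lie mostly at the left and above it, with Cxcl2 among the few strongly induced genes above the line.

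The higher calls rested more on thin counts than the lower calls. The 3 LPS libraries together held a median of 31 counts for a higher gene, 1461 for a lower gene and 93 for a gene tested. Of the 143 higher genes, 31 had no count in the LPS group (21.7%, against 3.80% of all genes tested) and 43 had 3 counts or fewer. Of the 156 lower genes, 2 had no count in the vehicle group and 3 none in the group with both agents. Calls also moved with the libraries used, from 52 to 346 higher and from 78 to 460 lower genes as each of the 12 was left out in turn. Called in all 12 of those fits were 61 of the 156 lower and 38 of the 143 higher genes. With limma voom and a weight per group, which gave the LPS group a weight of 0.485 against 1.26 to 1.29 for the other groups, 164 genes were lower and 57 higher. The higher genes were thus 25.8% of the calls there, against 47.8% in the edgeR fit.

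**Figure D2:**
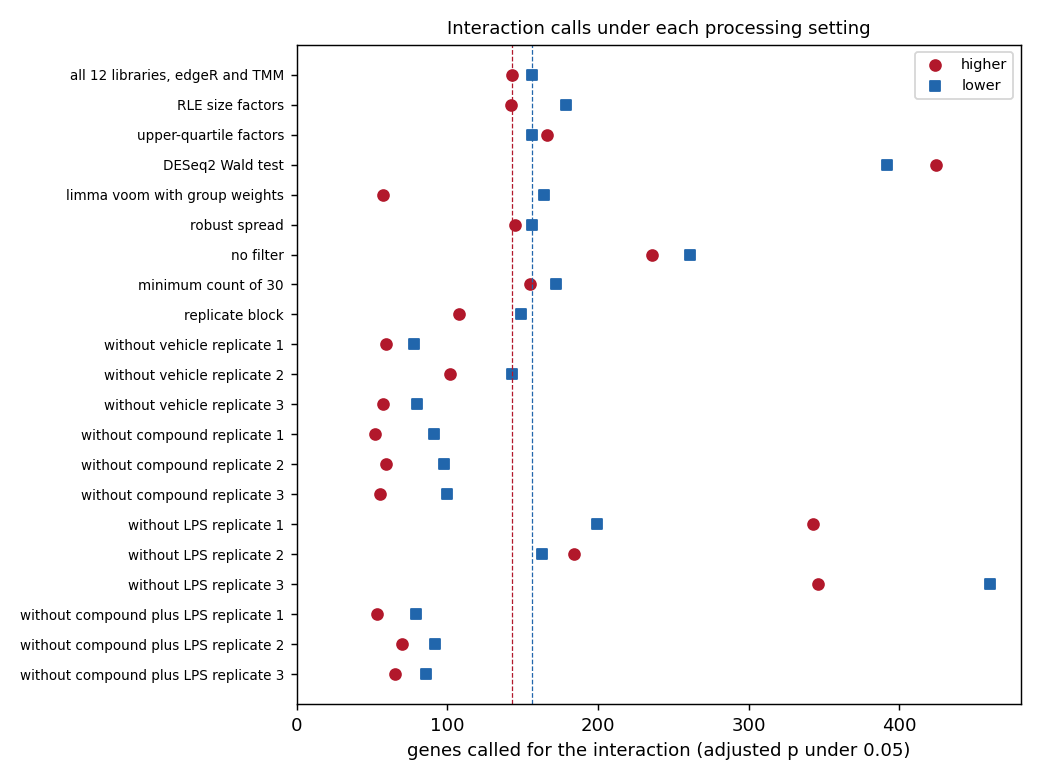
Number of genes called higher (red circles) and lower (blue squares) for the interaction under each processing setting and with each library left out; dashed lines mark the 143 higher and 156 lower genes of the fit to all 12 libraries. Counts fell below both lines when any vehicle, compound or compound plus LPS library was left out, and reached 346 and 460 without LPS replicate 3.

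Among 10 CXC chemokine genes tested, 4 had a higher and 3 a lower interaction, against 1.39% and 1.52% of all genes. This set was not 1 of the gene lists used below. Cxcl1, Cxcl2 and Cxcl3, which encode neutrophil attractants that bind CXCR2, had a higher interaction. Cxcl9, Cxcl10 and Cxcl11, interferon-inducible genes of the ligand family of CXCR3, a chemokine receptor on T cells, had a lower one. The fourth higher gene was Pf4, which encodes platelet factor 4 and was named after its value was seen (2.02, adjusted p = 0.036). Cxcl5, another CXCR2 ligand, Cxcl16 and Cxcl14 were not called (adjusted p = 0.67, 0.39 and 0.79). Cxcl5 had no count in the vehicle group and 3 in the compound group, which leaves only a bound of at most 1.53, and the value for Cxcl16 was 0.66. Cxcl1, Cxcl2, Cxcl3, Cxcl9, Cxcl10 and Cxcl11 lie on chromosome 5 (RefSeq, GRCm38.p6): Cxcl3 at 90786101 to 90788093, Cxcl1 at 90891245 to 90893121, Cxcl2 at 90903899 to 90905938, Cxcl9 at 92321331 to 92328079, Cxcl10 at 92346638 to 92348889 and Cxcl11 at 92359544 to 92363296. The 220 bases upstream of their starts are shown for the 5 with an entry in the RefSeq promoter table, since these neighbours responded so differently. Capitals mark matches, on either strand, to the kB consensus bound by NF-kB and to the interferon-stimulated response element (ISRE) GAAANNGAAA.
Cxcl1, chr5:90891025-90891244, plus strand: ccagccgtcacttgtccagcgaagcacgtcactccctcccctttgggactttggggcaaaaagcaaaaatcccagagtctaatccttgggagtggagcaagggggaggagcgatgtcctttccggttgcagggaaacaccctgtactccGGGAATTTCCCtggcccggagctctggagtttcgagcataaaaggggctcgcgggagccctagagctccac
Cxcl2, chr5:90903679-90903898, plus strand: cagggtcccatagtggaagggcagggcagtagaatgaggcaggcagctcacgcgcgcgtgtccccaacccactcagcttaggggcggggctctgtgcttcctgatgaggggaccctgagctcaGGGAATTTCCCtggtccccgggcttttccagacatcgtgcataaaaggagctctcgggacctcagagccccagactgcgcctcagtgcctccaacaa
Cxcl3, chr5:90785881-90786100, plus strand: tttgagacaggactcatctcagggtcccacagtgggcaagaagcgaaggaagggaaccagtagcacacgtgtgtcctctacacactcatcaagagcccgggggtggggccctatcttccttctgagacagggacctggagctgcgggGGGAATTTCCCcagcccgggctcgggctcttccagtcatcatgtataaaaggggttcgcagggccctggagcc
Cxcl9, chr5:92328080-92328299, minus strand: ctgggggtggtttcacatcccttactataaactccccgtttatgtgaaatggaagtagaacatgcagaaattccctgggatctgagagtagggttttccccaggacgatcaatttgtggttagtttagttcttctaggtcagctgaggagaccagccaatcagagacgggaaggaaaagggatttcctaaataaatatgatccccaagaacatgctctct
Cxcl10, chr5:92348890-92349109, minus strand: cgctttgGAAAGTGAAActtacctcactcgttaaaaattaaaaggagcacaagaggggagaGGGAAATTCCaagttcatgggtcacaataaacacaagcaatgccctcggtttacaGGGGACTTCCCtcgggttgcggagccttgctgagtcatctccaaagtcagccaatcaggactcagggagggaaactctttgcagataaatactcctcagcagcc
The run GGGAATTTCCC stood upstream of Cxcl1, Cxcl2 and Cxcl3 alike, where it held 2 overlapping kB matches in each. Cxcl10 had 3 kB matches, 2 of them overlapping, and 1 ISRE match, and Cxcl9 had neither motif in this window. A match is a description of these letters and not a measured binding site.

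Cxcl2 stood at 24.3, 23.8 and 18.6 CPM in the vehicle libraries (in replicate order) and at 21.0, 14.4 and 29.2 with the compound. LPS libraries held 2079, 2738 and 1287 CPM, and those with the compound and LPS 22305, 23503 and 17486 CPM. The groups without LPS overlapped, and every library with both agents was above every LPS library. LPS raised Cxcl2 91.5-fold without the compound and 977-fold with it, an interaction of 3.42 ± 0.51 (SE; adjusted p = 0.00077), which passed in every setting run. Cxcl1 stood at 107, 46.7 and 96.4 CPM with LPS and at 750, 825 and 843 CPM with both, and at 0 to 1.47 CPM without LPS, where its level rested on 21 counts in the vehicle group and 25 in the compound group. Its interaction was 3.31 ± 0.81 (adjusted p = 0.032). Cxcl3 stood at 125, 83.2 and 90.9 CPM with LPS and at 1416, 1499 and 1653 CPM with both, and its interaction was 3.40 ± 0.88 (adjusted p = 0.045). The calls of Cxcl1 and Cxcl3 did not hold in all 12 fits with a library left out, where adjusted p reached 0.22 for Cxcl1 and 0.54 for Cxcl3. Without vehicle replicate 1, the only vehicle library with a count of Cxcl3, its interaction was -1.89. In LPS-treated cells the compound raised Cxcl1 by 3.28 ± 0.47, Cxcl2 by 3.37 ± 0.38 and Cxcl3 by 3.92 ± 0.55 on the log2 scale, a difference that does not use the vehicle group.

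Cxcl9 stood at 1947, 1729 and 1087 CPM with LPS and at 104, 89.5 and 97.4 CPM with both agents. Without LPS it stood at 1.07, 2.72 and 4.65 CPM in vehicle cells and at 11.1, 8.10 and 18.6 CPM with the compound. The compound groups thus lay above vehicle without LPS and below the LPS group with LPS, and neither pair overlapped. LPS raised Cxcl9 579-fold without the compound and 7.65-fold with it, an interaction of -6.24 ± 0.63 (adjusted p = 3.7e-05). The interaction of Cxcl11 was also -6.24 (± 0.80, adjusted p = 0.00028), with 425, 345 and 149 CPM with LPS and 15.1, 20.2 and 19.9 CPM with both. The vehicle level of Cxcl11 rested on 9 counts. Cxcl10 had another shape. It stood at 15144, 5270 and 3776 CPM with LPS and at 4334, 3671 and 5446 CPM with both, which overlapped, and at 7.10, 8.17 and 10.6 CPM with vehicle against 100, 34.1 and 63.4 CPM with the compound, which did not. Its interaction of -3.78 ± 0.68 (adjusted p = 0.0046) therefore came with a compound effect of 2.93 ± 0.51 without LPS (adjusted p = 0.0025) and of -0.85 ± 0.46 with LPS (adjusted p = 0.23). The calls of Cxcl9, Cxcl10 and Cxcl11 passed in every setting run.

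**Figure D3:**
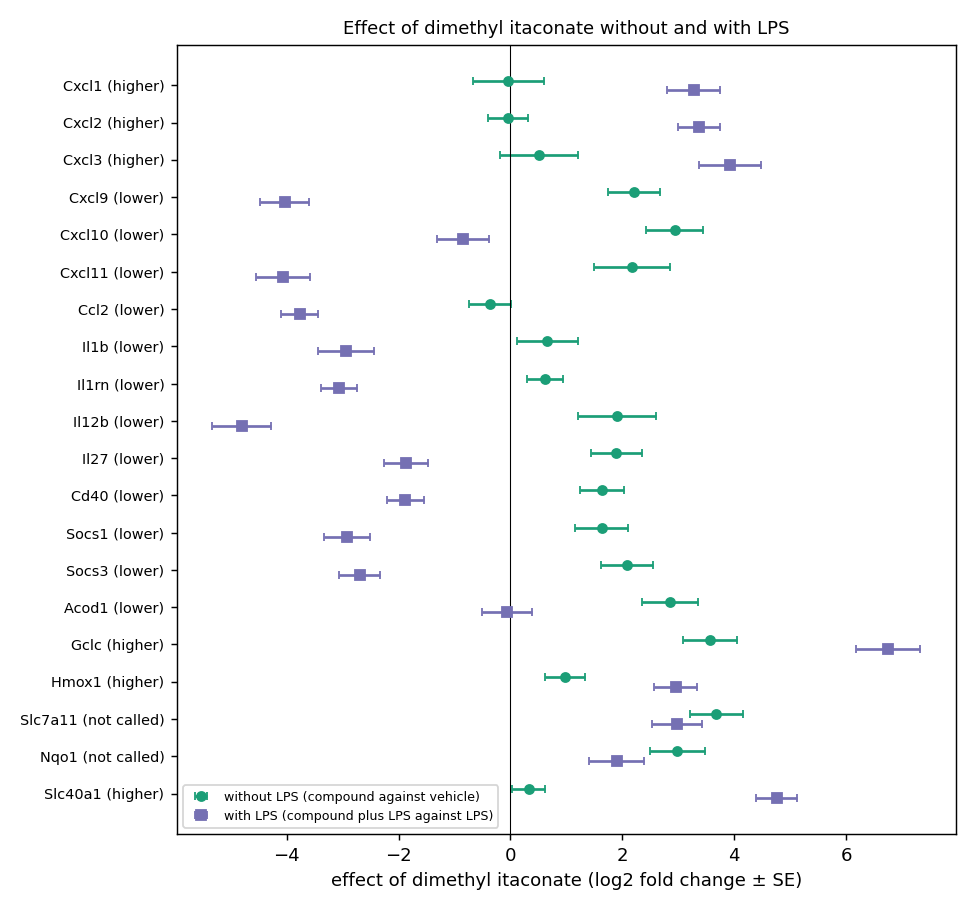
Effect of the compound on 20 genes (x axis, log2 fold change ± SE) without LPS (green circles, compound against vehicle) and with LPS (purple squares, compound plus LPS against LPS); the distance between the 2 points of a gene is its interaction. For Cxcl1, Cxcl2 and Cxcl3 the purple point lies to the right, for Cxcl9 and Cxcl11 it lies to the left at about -4 and on the other side of 0 from the green point, and for Acod1 it lies near 0.

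Among the other cytokines, Il12b and Il1a had the largest negative values in genes with more than 3 counts in every group. Il12b, the p40 subunit shared by IL-12 and IL-23, stood at 304, 278 and 120 CPM with LPS and at 6.48, 12.9 and 6.22 CPM with both agents. It stood at 0 to 0.778 CPM with vehicle and 1.06 to 3.26 CPM with the compound. Its interaction was -6.71 ± 0.84 (adjusted p = 0.00023): LPS raised it 465-fold without the compound and 4.46-fold with it. Il1a, which encodes the alarmin IL-1 alpha, stood at 381, 295 and 50.9 CPM with LPS and 18.5, 17.8 and 23.3 CPM with both, an interaction of -5.96 ± 1.08 (adjusted p = 0.0047). The vehicle level of Il1a rested on 7 counts. Il1b, the inflammasome-processed cytokine, stood at 1622, 1409 and 782 CPM with LPS and 186, 150 and 162 CPM with both, an interaction of -3.60 ± 0.72 (adjusted p = 0.011). Il1rn, which encodes the antagonist of the same receptor, moved with them. It stood at 947, 693 and 598 CPM with LPS and at 80.5, 81.5 and 106 CPM with both, an interaction of -3.68 ± 0.45 (adjusted p = 0.00023). Il27, a subunit of the cytokine IL-27, had an interaction of -3.76 ± 0.60 (adjusted p = 0.0016), and the monocyte attractant Ccl2 of -3.41 ± 0.49 (adjusted p = 0.0006). In each of these 6 genes every library with both agents lay below every LPS library, and each call passed in every setting run.

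Il6, which encodes the acute-phase cytokine IL-6, missed the threshold in the fit to all libraries. It stood at 819, 806 and 909 CPM with LPS and at 81.1, 97.5 and 118 CPM with both agents, and in LPS-treated cells the compound lowered it 8.54-fold (log2 -3.09 ± 0.48, adjusted p = 0.00028). The level without LPS rested on 5 counts in the vehicle group and 12 in the compound group. The interaction was -3.84 (95% confidence interval -6.08 to -1.61) with an adjusted p of 0.058, and without LPS replicate 3 it was -3.89 with an adjusted p of 0.022. Tnf, the other early LPS cytokine, did not pass in any fit with a library left out. It stood at 384, 500.5 and 734 CPM with LPS and at 732, 485 and 850 CPM with both agents, which overlapped. Its interaction was 0.59 (95% confidence interval -0.75 to 1.92; adjusted p = 0.69), so a difference of the size seen for Il12b lay outside the interval.

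Over the list of 32 inflammatory cytokines and chemokines, 28 were tested, 10 had a lower interaction (35.7%) and 3 a higher one (10.7%), against the 1.52% and 1.39% of all genes. The median over the 28 was -2.20, or -2.30 with genes of few counts set at their bound. The members called lower but not yet named, taken after their values were seen, were Il18, Csf1, Ccl4 and Tnfsf9, with values of -2.11, -2.78, -2.30 and -3.06. The 3 higher members were Cxcl1, Cxcl2 and Cxcl3. Without LPS replicate 3, when 4.33% of all genes were lower and 3.26% higher, the counts were 13 lower and 3 higher.

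Of 27 genes that respond to interferon gamma in macrophages, 9 were lower (33.3%, against 1.52% of all genes) and none higher (1.39% of all genes), with a median of -1.16. Besides Cxcl9 and Cxcl11 these were the guanylate-binding proteins Gbp4, Gbp2 and Gbp5, the GTPase Iigp1, the transcription factor Irf8, the checkpoint ligand Cd274 and the signalling inhibitor Socs1; Gbp2, Gbp5, Iigp1, Irf8 and Cd274 were named after their values were seen. Gbp4, a host-defence GTPase, stood at 358, 494 and 218 CPM with LPS and at 24.7, 12.3 and 19.0 CPM with both agents. It was at 0 to 0.962 CPM with vehicle, and its interaction was -6.02 ± 0.75 (adjusted p = 0.00023). The values of those 5 ran from -3.84 (Irf8) to -1.93 (Cd274). Gbp genes are close in sequence, and how the counting treated shared reads is not stated. Of 38 type I interferon genes tested, 3 were lower (7.89%) and none higher, with a median of 0.02. The difference between the lists was not tested. Without LPS replicate 3, when 4.33% of all genes were lower and 3.26% higher, the lower calls were 11 and 4, with 1 type I gene higher.

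The 3 type I interferon genes were Cxcl10, Ifi205 and Rsad2. Rsad2, which encodes the antiviral enzyme viperin, stood at 129, 251 and 164 CPM with vehicle and 640, 363 and 542 CPM with the compound. Its LPS libraries held 48363, 67614 and 45924 CPM, and those with both agents 23506, 35350 and 27481 CPM. Neither pair overlapped, but the fall in LPS-treated cells did not pass (log2 -0.91 ± 0.36, adjusted p = 0.10), while the rise without LPS did (1.51 ± 0.37, adjusted p = 0.032). The interaction was -2.41 ± 0.52 (adjusted p = 0.016). Ifi205, a DNA-sensor family gene whose reads cannot be told apart with certainty from those of near-identical neighbours, had an interaction of -4.13 ± 0.55 (adjusted p = 0.00039). It rose with the compound without LPS (2.64 ± 0.42) and fell with it in LPS-treated cells (-1.48 ± 0.36). The call of Rsad2 was lost with some single libraries left out (adjusted p up to 0.070).

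Feedback and signalling genes of the NF-kB list were called in 3 of 31 cases, all lower (9.68%, against 1.52% of all genes). Without LPS replicate 3, when 4.33% of all genes were lower, 5 were called, all lower. Socs3, an inhibitor of cytokine receptor signalling, stood at 790, 659 and 842 CPM with LPS and at 140, 100.2 and 113 CPM with both agents. It stood at 1.46, 0 and 0.802 CPM with vehicle and 4.83, 4.13 and 3.26 CPM with the compound. The compound thus raised it without LPS (2.08 ± 0.47, adjusted p = 0.018) and lowered it with LPS (-2.70 ± 0.36, adjusted p = 8.5e-05), an interaction of -4.78 ± 0.59 (adjusted p = 0.00023). Socs1, which inhibits JAK kinases, had an interaction of -4.56 ± 0.62 (adjusted p = 0.00041), and the costimulatory receptor Cd40 one of -3.51 ± 0.51 (adjusted p = 0.00066). The median over the 31 was -0.53. Nfkbiz, which encodes the nuclear regulator IkB zeta, was not called: it stood at 374, 280 and 89.1 CPM with LPS and at 165, 195 and 141 CPM with both. Its interaction was 0.70 (95% confidence interval -0.61 to 2.02; adjusted p = 0.61).

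**Figure D4:**
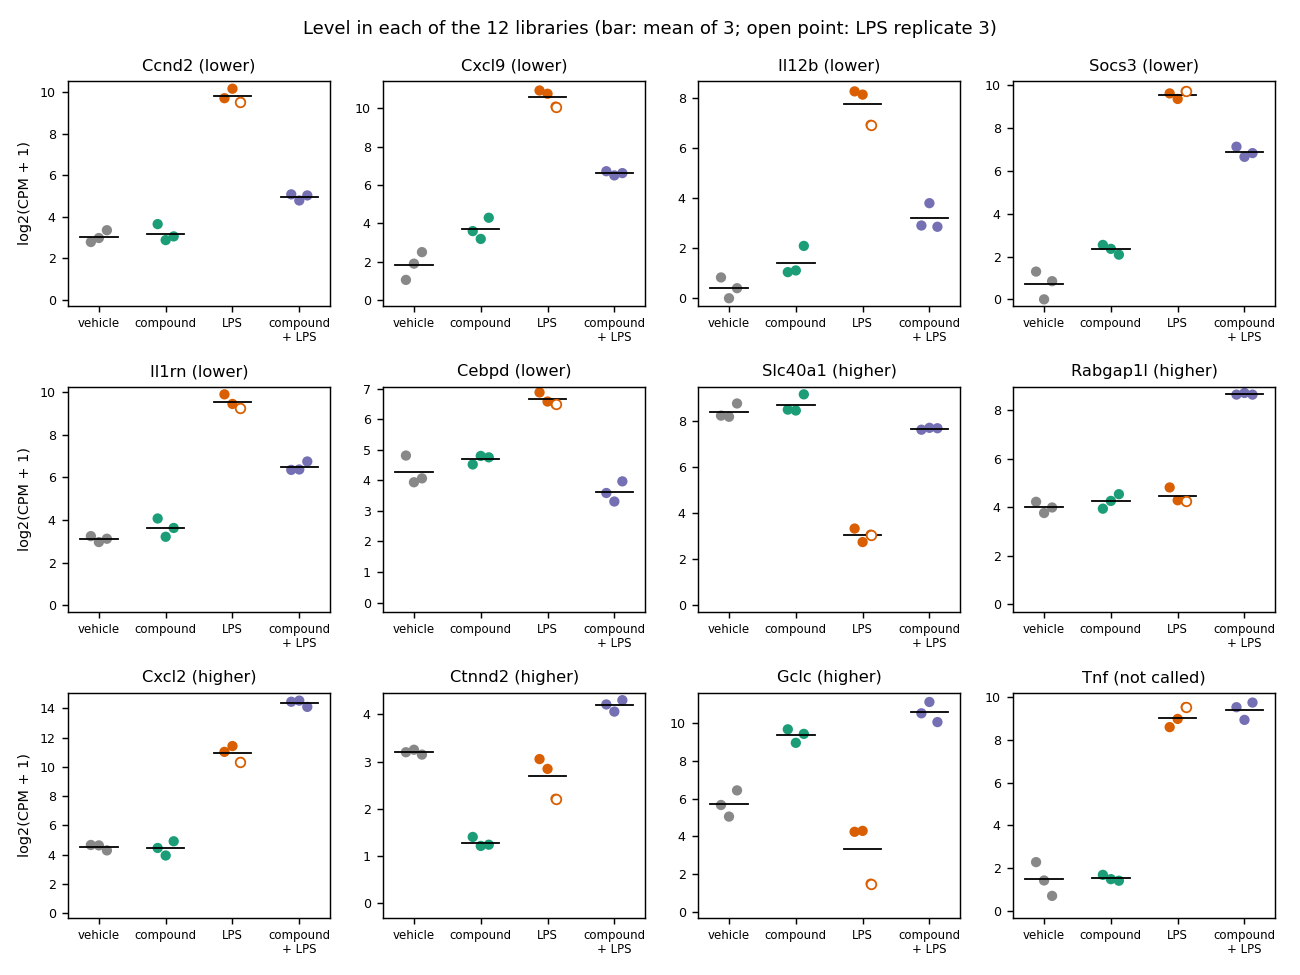
Level of 12 genes in each of the 12 libraries, as log2(CPM + 1), by group (bars, mean of the 3 plotted values; open point, LPS replicate 3). In Ccnd2, Cxcl9, Il12b, Socs3, Il1rn and Cebpd the LPS libraries stand above the libraries with both agents, in Slc40a1, Rabgap1l, Cxcl2, Ctnnd2 and Gclc below them, and in Tnf the 2 groups overlap.

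Of 11 genes tested in a list of Nfkbiz itself and genes reported to depend on it, 4 were lower (36.4%, against 1.52% of all genes) and none higher. Their median was -1.69 (-2.75 with bounds), and ran from -3.12 to -1.03 over the alternative settings. These were Il12b, Edn1, Cebpd and Nos2. Edn1, which encodes the vasoconstrictor endothelin-1, stood at 166, 293.5 and 240.0 CPM with LPS and at 0.981, 3.37 and 3.11 CPM with both agents. Its interaction was -7.79 ± 1.15 (adjusted p = 0.00072), and LPS with the compound did not pass the test (log2 1.20 ± 0.78, adjusted p = 0.33). Without LPS, Edn1 held 8 counts in the vehicle group (0, 0 and 1.28 CPM) and 25 in the compound group (2.00, 0.165 and 0.735 CPM). The size of its interaction is therefore uncertain. Cebpd, a transcription factor of the C/EBP family, was reversed in its LPS response. It stood at 27.1, 14.3 and 15.7 CPM with vehicle and 21.9, 26.8 and 25.9 CPM with the compound. After LPS the level was 116, 94.5 and 89.1 CPM, and after both agents 10.99, 8.89 and 14.6 CPM. LPS thus raised Cebpd without the compound (2.38 ± 0.34, adjusted p = 3e-05) and lowered it with the compound (-1.11 ± 0.34, adjusted p = 0.026), an interaction of -3.50 ± 0.48 (adjusted p = 0.00041).

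Nos2, the inducible nitric oxide synthase, had no count in the vehicle group, so only a bound can be given. It stood at 214.5, 210 and 41.8 CPM with LPS and at 7.85, 5.52 and 2.18 CPM with both agents, and at 2.12, 0 and 0.525 CPM with the compound alone. Against a floor of 3 counts over the vehicle group, the bound on its interaction was -7.75 on the log2 scale, or 215-fold (adjusted p of the fit 0.0042). This bound takes the 23 counts of the compound group as exact, although they were spread unevenly over its libraries. The limma voom value was less negative, at -7.49, so a smaller difference is not excluded and the size is uncertain. The call of Nos2 was lost with some libraries left out (adjusted p up to 0.063). In LPS-treated cells, where all libraries held counts, the compound lowered Nos2 by a log2 value of -4.89 ± 0.73 (adjusted p = 0.0003).

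Mir155, the locus of a microRNA induced by TLR signals and known for its part in inflammatory macrophage activation, had the second-smallest p-value of all genes with a symbol. Sequencing started from oligo-dT primers, so the counts do not measure the mature microRNA. The annotation behind the counts is not given, and in RefSeq the locus spans chr16:84714140-84714204. Its mature forms in RefSeq (GRCm38.p6, plus strand) are shown with the seed, bases 2 to 8, in capitals.
mmu-miR-155-5p: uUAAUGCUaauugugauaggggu
mmu-miR-155-3p: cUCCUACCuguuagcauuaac
The locus stood at 0.195, 0 and 0.160 CPM with vehicle and at 3.18, 4.63 and 2.42 CPM with the compound. The LPS libraries held 269, 351 and 227 CPM, and those with both agents 25.5, 46.3 and 26.4 CPM. The compound groups again lay above vehicle and below LPS with no overlap. With only 3 counts in the vehicle group, the ratio gave a log2 interaction of -7.60, and counting error alone allowed -9.88 to -6.05 (adjusted p of the fit 1.5e-05). The call passed in every setting run.

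Other lower genes lay outside the cytokine and interferon lists. Ccnd2, which encodes the cell-cycle regulator cyclin D2 (chr6:127125162-127152188), had the smallest p-value. It stood at 833, 1145 and 731 CPM with LPS and at 32.6, 26.4 and 31.4 CPM with both agents, and at 5.84 to 11.4 CPM in the 6 libraries without LPS. LPS raised it 124-fold without the compound and 3.60-fold with it, an interaction of -5.11 ± 0.47 (adjusted p = 1.5e-05). Cd69, an early activation antigen, had an interaction of -6.28 ± 0.78 (adjusted p = 0.00023). It stood at 1692, 1343 and 622 CPM with LPS and at 98.3, 90.1 and 147 CPM with both. Lipg, which encodes endothelial lipase, had the most negative value among genes with more than 3 counts in every group, -7.88 ± 1.10 (adjusted p = 0.00046). It stood at 422, 659 and 214.5 CPM with LPS and at 2.55, 7.97 and 4.35 CPM with both. The vehicle level of Lipg rested on 9 counts (0.292, 2.04 and 0 CPM), so the size of its value is uncertain. Adamts4, a matrix protease, had -4.77 ± 1.12 (adjusted p = 0.027) and Ch25h, the enzyme that makes 25-hydroxycholesterol, -4.60 ± 0.96 (adjusted p = 0.013). Both calls were lost with some libraries left out (adjusted p up to 0.089 and 0.092). Shisa3 held 4 counts with vehicle and 3 with both agents, against 228 with LPS. Its ratio gave -8.52, and counting error of the 3 counts with both agents alone allowed -10.79 to -6.97. That range leaves out the error of the 4 vehicle counts and of 11 counts in the compound group. Adjusted p reached 0.17 with a library left out. The phosphatase gene Dusp2 was the only call among 27 immediate early genes and MAP kinase phosphatases, with -4.54 ± 0.68 (adjusted p = 0.00077). That was 3.7% of the list, against 1.52% of all genes lower. Without LPS replicate 3, when 4.33% of all genes were lower and 3.26% higher, the list had 3 lower and 2 higher calls.

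Acod1 itself was lower in interaction although its level in LPS-treated cells did not differ detectably. It stood at 12.6, 17.0 and 9.30 CPM with vehicle and at 125, 46.1 and 109 CPM with the compound, without overlap. With LPS it stood at 17120, 20560 and 6999 CPM and with both agents at 11594, 22196 and 9076 CPM, which overlapped. The compound effect was 2.86 ± 0.50 without LPS (adjusted p = 0.0027) and -0.06 ± 0.45 with LPS (adjusted p = 0.95). The interaction was -2.92 ± 0.67 (adjusted p = 0.023), and -3.31 without LPS replicate 3 (adjusted p = 0.00064). It was the only call among 30 genes of the TCA cycle, succinate and itaconate metabolism (3.33% lower, against 1.52% of all genes). With some libraries left out its adjusted p reached 0.087. Sdha, a subunit of succinate dehydrogenase, had an interaction of 0.76 (95% confidence interval -0.29 to 1.80; adjusted p = 0.46). Of 29 glycolysis and HIF-1 target genes, 2 were lower (6.9%, against 1.52% of all genes). Without LPS replicate 3, when 4.33% of all genes were lower, 5 were lower. Slc16a1, a lactate and pyruvate transporter, had -2.85 ± 0.56 (adjusted p = 0.0087), and Hk2, a hexokinase, -2.22 ± 0.55 (adjusted p = 0.035, and up to 0.11 with a library left out).

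Among the higher genes, Slc40a1 had the smallest p-value. It encodes ferroportin, the cellular iron exporter (chr1:45908070-45926532). It stood at 298, 288 and 430.1 CPM with vehicle and at 357, 348 and 566 CPM with the compound. It fell to 8.95, 5.62 and 7.27 CPM with LPS, and with both agents stood at 194.5, 206 and 203 CPM. The groups without LPS overlapped, and the groups with LPS were far apart. LPS lowered it 45.5-fold without the compound and 2.11-fold with it, an interaction of 4.43 ± 0.46 (adjusted p = 4.8e-05). Rabgap1l, which encodes a Rab GTPase-activating protein (chr1:160219174-160793476), rose only where both agents were present. It stood at 12.6 to 27.2 CPM in the 9 libraries of the other 3 groups and at 398, 417 and 398 CPM with both. LPS gave 0.53 ± 0.31 without the compound (adjusted p = 0.20) and 4.46 ± 0.32 with it (adjusted p = 2e-08), an interaction of 3.94 ± 0.43 (adjusted p = 6.9e-05). Both calls passed in every setting run.

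Ctnnd2, which encodes the catenin family protein delta-catenin, changed in opposite directions. It stood at 8.17, 8.51 and 7.86 CPM with vehicle and at 1.65, 1.32 and 1.37 CPM with the compound, against 7.29, 6.19 and 3.64 CPM with LPS and 17.5, 15.6 and 18.7 CPM with both. The interaction was 3.96 ± 0.64 (adjusted p = 0.0019). Cebpa, the C/EBP factor of myeloid differentiation, stood at 13.3, 2.25 and 1.82 CPM with LPS and at 77.0, 71.1 and 109 CPM with both agents, a level within the range of the groups without LPS (48.3 to 136.5 CPM) in all 3 libraries. Its interaction was 4.03 ± 0.69 (adjusted p = 0.0033), so the C/EBP genes Cebpa and Cebpd moved in opposite directions. Lhfpl2, a tetraspan membrane protein gene, held 4 counts in the LPS group and had an interaction of 4.96 ± 0.73 (adjusted p = 0.00071). Mob3b (3.82 ± 0.70, adjusted p = 0.0050) and Sec14l1 (3.53 ± 0.72, adjusted p = 0.012) also passed in every setting run. The calls of Frmd6, Scamp5, Tmem273, Hsd3b7 and Cipc, with interactions of 3.43 to 3.85, did not. These 5 genes held between 4 and 20 counts in the LPS group.

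Of the higher genes with 3 counts or fewer in the LPS group, the 3 with the smallest p-values are given here. Tmc8, a TMC family membrane protein gene, held 0 counts with LPS against 115 with vehicle, 220 with the compound and 264 with both agents. LPS thus lowered it without the compound, and raised it 2.45-fold with the compound. Against the floor of 3 counts, its interaction was at least 4.72 on the log2 scale (adjusted p of the fit 0.00083). That is a ratio of at least 26.3 between the LPS fold changes with and without the compound. For Crat, which encodes carnitine acetyltransferase, the bound was at least 4.15 (adjusted p of the fit 0.0040). Tacc2, a centrosome-associated gene, held 1 count with LPS, and the ratio gave 6.26, where counting error alone allowed 3.79 to 11.57 (adjusted p of the fit 0.00045). The 3 calls passed in every setting run.

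NRF2 target genes gave 5 higher and no lower calls among 38 tested (13.2%, against 1.39% of all genes), with a median of 0.80. Without LPS replicate 3, when 3.26% of all genes were higher and 4.33% lower, there were 7 higher and 1 lower. Gclc, the catalytic subunit of the rate-limiting enzyme of glutathione synthesis, stood at 49.5, 32.0 and 85.3 CPM with vehicle and 809, 492 and 684 CPM with the compound. With LPS it stood at 17.9, 18.6 and 1.82 CPM and with both agents at 1457, 2205 and 1055 CPM. The compound raised it 11.9-fold without LPS and 108-fold with LPS, an interaction of 3.19 ± 0.65 (adjusted p = 0.012, and 0.058 with limma voom). Hmox1, the haem-degrading enzyme, stood at 66.7, 139 and 61.1 CPM with vehicle and 171, 233 and 119 CPM with the compound, which overlapped. With LPS it stood at 102, 115 and 120.0 CPM and with both agents at 966, 605 and 1030 CPM, which did not. Its interaction was 1.98 ± 0.50 (adjusted p = 0.041). Slc48a1, a haem transporter, had 1.95 ± 0.46 (adjusted p = 0.027). Osgin1, an oxidative stress response gene, held 2 counts in the LPS group and had a ratio of 4.29, where counting error alone allowed 2.44 to 7.34 (adjusted p of the fit 0.026). The fifth was Slc40a1, and other iron and haem genes of the list were not called: Ftl1 had 2.23 (adjusted p = 0.35), Fth1 0.54 (0.66) and Blvrb 0.37 (0.71). The calls of Hmox1, Slc48a1 and Osgin1 were lost with some libraries left out, with adjusted p up to 0.12.

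Slc7a11 and Nqo1, NRF2 targets that the compound raised with and without LPS, had no called interaction. Slc7a11, the cystine transporter subunit, stood at 4.67, 4.09 and 8.02 CPM with vehicle, 58.6, 45.1 and 115 with the compound, 123, 139 and 38.2 with LPS and 898, 734 and 780.4 with both. The compound raised it 12.8-fold without LPS and 7.85-fold with LPS, an interaction of -0.71 (95% confidence interval -1.97 to 0.55; adjusted p = 0.58). Nqo1, a quinone reductase, had 7.88-fold and 3.74-fold, an interaction of -1.07 (95% confidence interval -2.48 to 0.34; adjusted p = 0.43). It was -0.21 without LPS replicate 3, where Nqo1 stood at 67.3 CPM against 18.9 and 10.1 in the other LPS libraries. Prdx1, the peroxiredoxin that took a large share of the counts and has processed copies, had -1.94 (95% confidence interval -3.69 to -0.20; adjusted p = 0.22), and -0.43 without LPS replicate 3, where it stood at 305470 CPM against 47578 and 42298 in the other LPS libraries. Of the 38 NRF2 targets, 10 had a negative value.

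**Figure D5:**
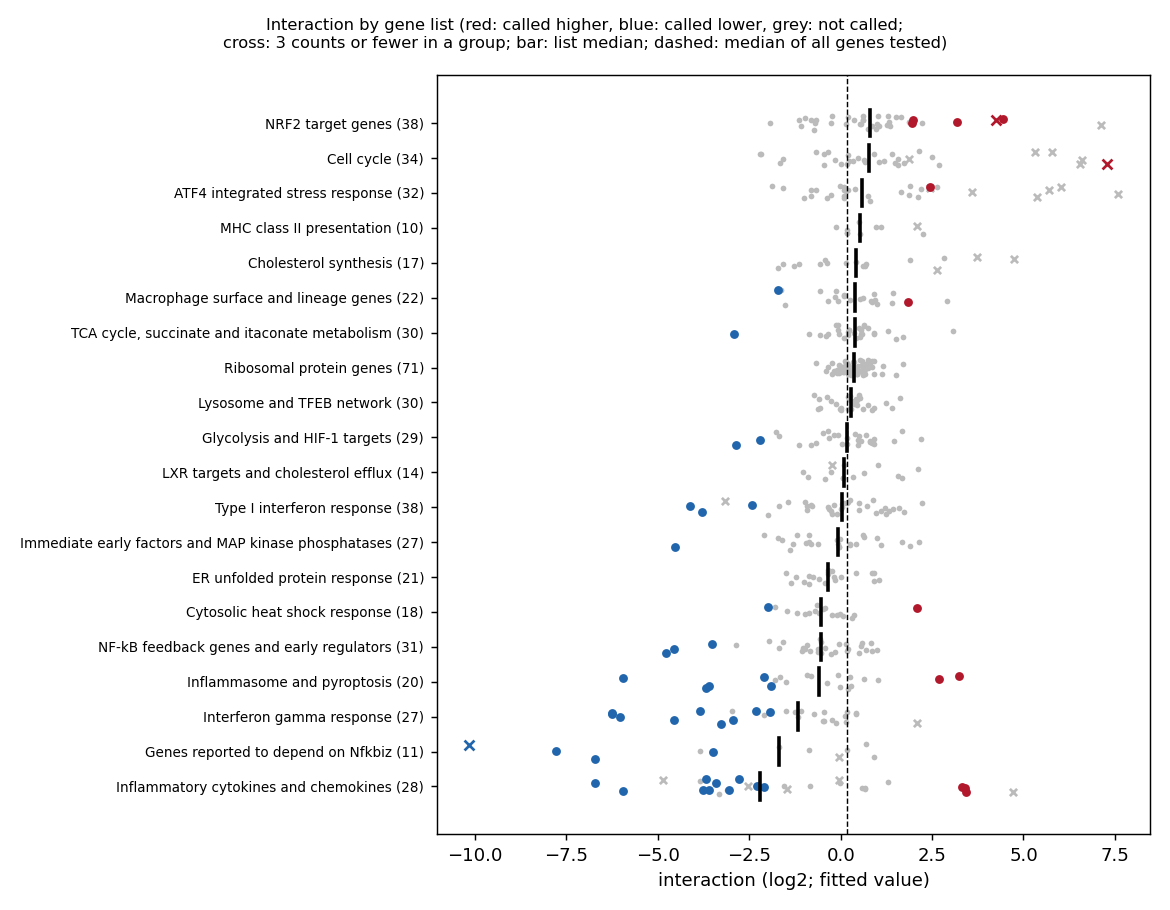
Interaction of each tested member of 20 gene lists (x axis, fitted log2 value; number tested in brackets), with black bars for list medians and a dashed line at 0.17, the median of all genes tested. Cytokines and chemokines, the Nfkbiz list (which holds Nfkbiz itself) and interferon gamma genes lie farthest to the left with medians of -2.20, -1.69 and -1.16. NRF2 targets and cell cycle genes lie farthest to the right at 0.80 and 0.79. Without LPS replicate 3 the medians of these lists were 0.63 and 0.73. Crosses are genes with 3 counts or fewer in a group, whose fitted values have no reliable size.

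Of 20 inflammasome and pyroptosis genes, 5 were lower (25%) and 2 higher (10%), against 1.52% and 1.39% of all genes. Pycard, the adaptor ASC, stood at 112, 114 and 142 CPM with LPS and at 18.8, 17.5 and 20.8 CPM with both agents, an interaction of -1.89 ± 0.40 (adjusted p = 0.016); the other 4 were Il1a, Il1b, Il18 and Il1rn. The sensors Nlrc4 (2.69 ± 0.70, adjusted p = 0.046) and Nlrp1b (3.24 ± 0.78, adjusted p = 0.029) were the 2 higher genes. Of 18 heat shock genes, the co-chaperones Dnaja1 (-1.98 ± 0.40, adjusted p = 0.012) and Dnajb4 (2.08 ± 0.47, adjusted p = 0.020) were called in opposite directions. Of 22 macrophage surface genes, the scavenger receptor Msr1 was lower (-1.72 ± 0.37, adjusted p = 0.017) and the M-CSF receptor Csf1r higher (1.86 ± 0.46, adjusted p = 0.036). Eif4ebp1, a repressor of translation initiation, was the only call among 32 ATF4 target genes (2.44 ± 0.54, adjusted p = 0.019), and the stress-induced factor Atf3 had -0.06 (95% confidence interval -1.07 to 0.95; adjusted p = 0.97). Of 34 cell cycle genes, the mitotic gene Birc5 was higher, with 0 counts in the LPS group and a bound of at least 2.87 (adjusted p of the fit 0.037). Each of these 9 calls was lost with some libraries left out. No gene was called among 21 of the unfolded protein response, 17 of cholesterol synthesis, 14 LXR targets, 10 of MHC class II, 30 of the lysosome and 71 ribosomal protein genes, whose medians ran from -0.34 to 0.52. Without LPS replicate 3, when 4.33% of all genes were lower and 3.26% higher, 1 gene each of the unfolded protein response and LXR lists was lower and 1 lysosome gene higher. The ATF4 list then had 3 higher and 2 lower, the heat shock list 1 higher and 3 lower, the cell cycle list 2 and 2, and the macrophage surface list 2 and 1.

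The compound effect was called in opposite directions without and with LPS in 14 of the 10285 genes tested. Of these, 12 were higher without LPS and lower with it, among them Cxcl9, Mir155, Socs3, Cd69, Cd40 and Il27. In 12 genes the LPS response was called in opposite directions. LPS lowered 10 of these without the compound and raised them with it. Among them, named after their values were seen, Kansl2, a subunit of a histone acetyltransferase complex, stood at 6.63, 6.19 and 1.82 CPM with LPS and 52.2, 33.7 and 34.5 CPM with both, against 21.5, 19.1 and 20.7 CPM with vehicle. The nuclear noncoding RNA Neat1 was in both sets: it stood at 535, 559 and 665 CPM with vehicle, 217, 246 and 189 with the compound, 271, 290 and 185 with LPS and 491, 439 and 547 with both. Each agent alone lowered it, and its interaction was 2.41 ± 0.39 (adjusted p = 0.0019).

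Promoter letters were compared between the called genes and all genes tested, over 250 bases before to 50 after the start in RefSeq (GRCm38.p6), on both strands and with overlaps between motifs allowed. A window was found for 115 of the 156 lower genes, 120 of the 143 higher genes and 8335 of the 10285 tested. Shares are of these genes, and a gene with several windows counted if any of them matched. The ISRE letters GAAANNGAAA stood in 11.3% of the lower genes, 5.0% of the higher genes and 4.02% of all tested. The kB consensus stood in 10.4%, 14.2% and 9.54%, and the AP-1 letters TGANTCA in 13%, 10.8% and 6.13%. The antioxidant response element letters TGACNNNGC stood in 17.4%, 17.5% and 17.3%. The shares are descriptions of these windows, with no test, and say nothing of binding.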

How the data were processed

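RNA of 12 libraries was measured by sequencing from oligo-dT primers after pooling by Actb level, per the labels' protocols. The authors deposited raw counts per gene with Entrez identifiers. The submitters' processing notes name STAR, HTSeq, DESeq2 and mm10; versions, annotation and strand option are not given in the sources used here, so overlapping, antisense and near-identical genes (Ifi205, Gbp genes, Prdx1) are uncertain. No molecular identifiers are described, so intervals and bounds cover counting error only.

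Symbols and coordinates came from RefSeq GRCm38.p6 (23969 of 24052 genes matched). The counts were fitted with edgeR 4.0.16 (R 4.3.3): TMM factors, filterByExpr with a minimum count of 10, a mean per group, no replicate term, quasi-likelihood F test with 8 residual degrees of freedom, 2-sided, Benjamini-Hochberg over 10285 genes. The groups share 1 spread, while the LPS libraries varied more. CPM uses TMM-scaled totals, except in the marker sums, which use unscaled totals. A group at 0 was set at a floor of 3 counts over the group, and 1 to 3 counts got an exact 95% Poisson interval. In these bounds and counting intervals the counts of the other groups were taken as exact. The script was tested on simulated data. Alternatives used DESeq2 1.42.0, limma 3.58.1, other scalings and filters, and each library left out.

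Genes were named by a rule: the 12 called genes with the largest value per direction and more than 3 counts in every group, up to 3 with fewer, up to 4 called members per list and direction, and 16 fixed genes. The comparison, lists and rule were chosen with earlier results of these data known. Another promoter motif that was searched is not reported here.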

Additional observations from a re-analysis of the deposited data

Results flagged for a closer look

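In 14 of the 10285 genes tested, the effect of dimethyl itaconate was called in opposite directions in cells without and with LPS. The interaction is the difference of those 2 effects in the same fit. Its call in each of the 14 followed almost entirely from how they were picked and is not separate evidence. The compound raised 12 of them without LPS and lowered them with LPS. Their interactions (log2) were -6.28 for Cd69, -4.78 for Socs3, -3.74 for F10, -6.24 for Cxcl9, -3.47 for Mmp13, -3.51 for Cd40, -4.13 for Ifi205, -2.95 for Gbp5, -2.01 for Naa25, -3.76 for Il27 and -3.59 for Rnd3. The value for Mir155 was -7.60, from a group with few counts. The other two, Ctnnd2 at 3.96 and Neat1 at 2.41, were lowered without LPS and raised with it.

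Mmp13, which encodes a collagenase, stood at 27.1, 28.9 and 28.9 CPM with vehicle, 67.3, 77.1 and 72.3 with the compound, 2526, 1652 and 3843 with LPS and 609, 600.1 and 640.4 with both agents. F10, which encodes coagulation factor X, stood at 8.27, 9.53 and 1.44 CPM with vehicle, 38.8, 31.7 and 23.4 with the compound, 120.4, 183 and 115 with LPS and 49.5, 73.6 and 33.9 with both. Naa25, a subunit of an N-terminal acetyltransferase, sat at the threshold in LPS-treated cells (adjusted p = 0.050). Gbp5 and Ifi205 have near-identical relatives, and their assignment is uncertain.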

How the results depend on the processing

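The number of calls depended on the processing more than their direction did. DESeq2 gave 424 higher and 392 lower genes (415 genes had no adjusted p), no filter 236 and 261, and limma voom 57 higher and 164 lower, against 143 and 156. Leaving out each library in turn gave 52 to 346 higher and 78 to 460 lower genes. Higher and lower calls were 346 and 460 without LPS replicate 3, and 343 and 199 without LPS replicate 1. They were 59 and 78 without vehicle replicate 1, and 57 and 80 without vehicle replicate 3. They were 52 and 91, 59 and 98, and 55 and 100 without compound replicates 1, 2 and 3, and 53 and 79, 70 and 92, and 65 and 86 without replicates 1, 2 and 3 of compound plus LPS. Other scalings, robust spread and a minimum count of 30 stayed within 1.5 times. No main call changed sign in any setting except Cxcl3, at -1.89 without vehicle replicate 1 (up to 3.94 without vehicle replicate 3). Uncalled genes changed sign near 0: Tnf ran from -0.50 without vehicle replicate 1 to 1.02 without vehicle replicate 3. Atf3 was -0.41 without LPS replicate 3, 0.01 without compound replicate 2, 0.0014 without LPS replicate 1, 0.26 without LPS replicate 2 and 0.14 without compound plus LPS replicate 3. Of 60 named genes that were called, 33 were called in all 20 alternatives. Replicate numbers did not pair the libraries (6 of 18 same-numbered pairs correlated above 0.1, -0.141 to 0.231, and 5 of 12 libraries correlated best with their own number); a replicate block gave 108 higher and 149 lower genes. The cause of these differences was not tested. Low counts in the LPS group limit how precisely the higher values are known.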
